A study of Bos taurus with 16 samples.

Results

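The comparison described here set corpora lutea of cows on days 150-160 of pregnancy (4 cows) against corpora lutea of cows on days 40-45 (4 cows), which are 8 of the 16 arrays of the series, and it covers all genes measured on them. The 8 arrays were chosen by their labelled stage alone. Every animal was a Japanese Black cow, and no genetic change or treatment was named for any group. Days of pregnancy were counted from insemination, which was day 1, and ovaries were taken within 10 to 30 min of exsanguination. The cows' ages were not given in the sources used here. The other arrays held 4 cyclic animals (estrous cycle, days 10-12) and 4 at pregnancy days 20-25. They entered the fit to share its estimate of the spread, and their levels are given where they place a gene in time.

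The corpus luteum forms from the ovulated follicle and secretes progesterone, the hormone that maintains pregnancy. Its large luteal cells derive mainly from granulosa cells and its small luteal cells from theca cells, and they lie in a dense bed of capillaries with pericytes, fibroblasts and immune cells. In ruminants the gland also makes oxytocin, which takes part in the release of uterine prostaglandin F2 alpha, the signal that ends the gland's life in a cycle without pregnancy. In pregnant cows the gland persists through gestation, so the comparison asks how its transcripts differ between the early and the middle months of one long secretory life.

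Each array was a 1-colour bovine oligonucleotide array with 15208 probes of 60 bases. Levels are log2 of the processed signal minus log2 of that array's 75th percentile, so that 0 is the brightness of that percentile, and a level can be compared between animals for 1 probe but not between probes. The 75th percentile was 2168 to 2682 units on the arrays of days 150-160 and 2245 to 3447 units on those of days 40-45. Between 74.2% and 76.6% of the probes were well above background on days 150-160, and between 71.9% and 78.4% on days 40-45. By the labels, animals 1 and 2 of each group were on 1 slide and animals 3 and 4 on the other. Slide and position were taken from the labels, and some scanner headers give other barcode digits. The 2 groups held fixed and different positions on each slide, so position and stage cannot be told apart. The SD of the negative control spots was 4.71 to 6.54 units on days 150-160, above the 2.89 to 3.72 units on days 40-45. The lowest level that counted as well above background was -6.68 to -6.20 on days 150-160 and -7.12 to -6.39 on days 40-45.

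The tissue label was checked on marker genes. All 4 luteal markers, STAR, CYP11A1, HSD3B1 and LHCGR, were well above background on all 8 arrays. Between 71.9% and 78.4% of all probes passed on each of these arrays, so passing alone says little about the tissue. STAR, CYP11A1 and HSD3B1 stood far above the array's 75th percentile, at levels of 6.17 to 7.82, and LHCGR below it, at -2.58 to -0.83. Markers of other cell types were also read. Of 6 epithelial or surface markers on the array, KRT8, KRT19, CDH1, UPK1B and UPK3B were well above background on all 8 arrays, and EPCAM on 0 late arrays and 1 early array. Of 3 B and plasma cell markers, CD79A and JCHAIN were so on all 8 arrays and MS4A1 on 0. Of 3 red cell genes, ALAS2 was so on all 8 arrays and the globins HBA and HBB on 0.

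Few transcripts were called between the stages, and a probe that was not called may still differ. With a moderated test (limma, slide as a block, p-values adjusted over 11943 probes by the Benjamini-Hochberg method, called under 0.05), 13 probes differed, which is 0.109% of those tested. Of these 8 were higher on days 150-160 (0.067%) and 5 were lower (0.0419%), and 11 differed at least 2-fold. At a share of 0.109% most of the gene lists below would hold 0 called members whatever their genes. An unadjusted p under 0.05 was found for 1257 probes (10.5%). The median log2 change over all probes was 0.01 and its SD was 0.39. Correlations between arrays of the 2 stages, 0.973 to 0.985 across probes, overlapped those between animals of 1 stage, 0.973 to 0.988. The number called depended on single animals: it was 2 to 4 when an animal of days 40-45 was left out, 2 or 3 without animal 1, 2 or 4 of days 150-160, and 29 without animal 3 of days 150-160. With only these 8 arrays in the fit, 1 probe was called, that of NEFM.

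The genes called higher on days 150-160 were NEFM, CLDN10, DHRS9, PYCARD, LDHD, ACSM1 and DYNLRB2, with 1 probe that has no gene name. The genes called lower were OXT and FBXW9, with 3 unnamed probes. The 4 unnamed probes, and the 3 genes whose measurement rests most on a dim or a sharply falling signal, are shown by the 60-base probe that measured them, since a probe reads 1 short stretch of a transcript. Sequences are as the scanner files give them, 5′ to 3′, with no base marked.
OXT: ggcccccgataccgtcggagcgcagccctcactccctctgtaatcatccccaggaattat
NEFM: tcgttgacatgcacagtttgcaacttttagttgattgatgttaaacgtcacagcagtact
CLDN10: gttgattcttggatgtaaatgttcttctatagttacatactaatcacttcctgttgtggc
ABR4171: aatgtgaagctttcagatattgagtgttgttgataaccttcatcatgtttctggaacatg
ABR4013: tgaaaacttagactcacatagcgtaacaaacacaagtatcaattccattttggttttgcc
A_73_103170: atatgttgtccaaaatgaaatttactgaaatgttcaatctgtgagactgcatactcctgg
A_73_118112: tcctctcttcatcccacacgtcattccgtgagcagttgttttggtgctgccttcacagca

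OXT, which encodes the oxytocin and neurophysin precursor, showed the largest fall among called probes. Its level was -2.28, -0.77, -3.03 and -2.60 in the 4 cows of days 150-160, against 0.79, 1.87, 2.35 and 1.99 in the 4 cows of days 40-45. Every late gland lay below every early one, and the late glands varied more among themselves. The log2 change was -3.92 (SE 0.458, adjusted p = 0.00887), a 15.1-fold lower signal. Within slide 1 the change was -2.86 and within slide 2 it was -4.98. OXT stayed called when any 1 of the 16 arrays was left out, with adjusted p between 0.0013 and 0.049. With only the 8 compared arrays in the fit OXT was not called (adjusted p = 0.149). Because whole glands were measured, fewer cells of a type and less RNA per cell cannot be told apart, here and below.

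OXT means were lower at each successive stage. Its mean level was 5.80 ± 0.61 in the cyclic group, 5.02 ± 0.44 at days 20-25, 1.75 ± 0.67 at days 40-45 and -2.17 ± 0.98 at days 150-160 (SD, n = 4 each). The step between days 40-45 and days 20-25, a comparison that shares the arrays of days 40-45, was also called (log2 change -3.27, adjusted p = 0.0356). At every stage OXT was well above background, so the late level is a measured one.

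**Figure D1:**
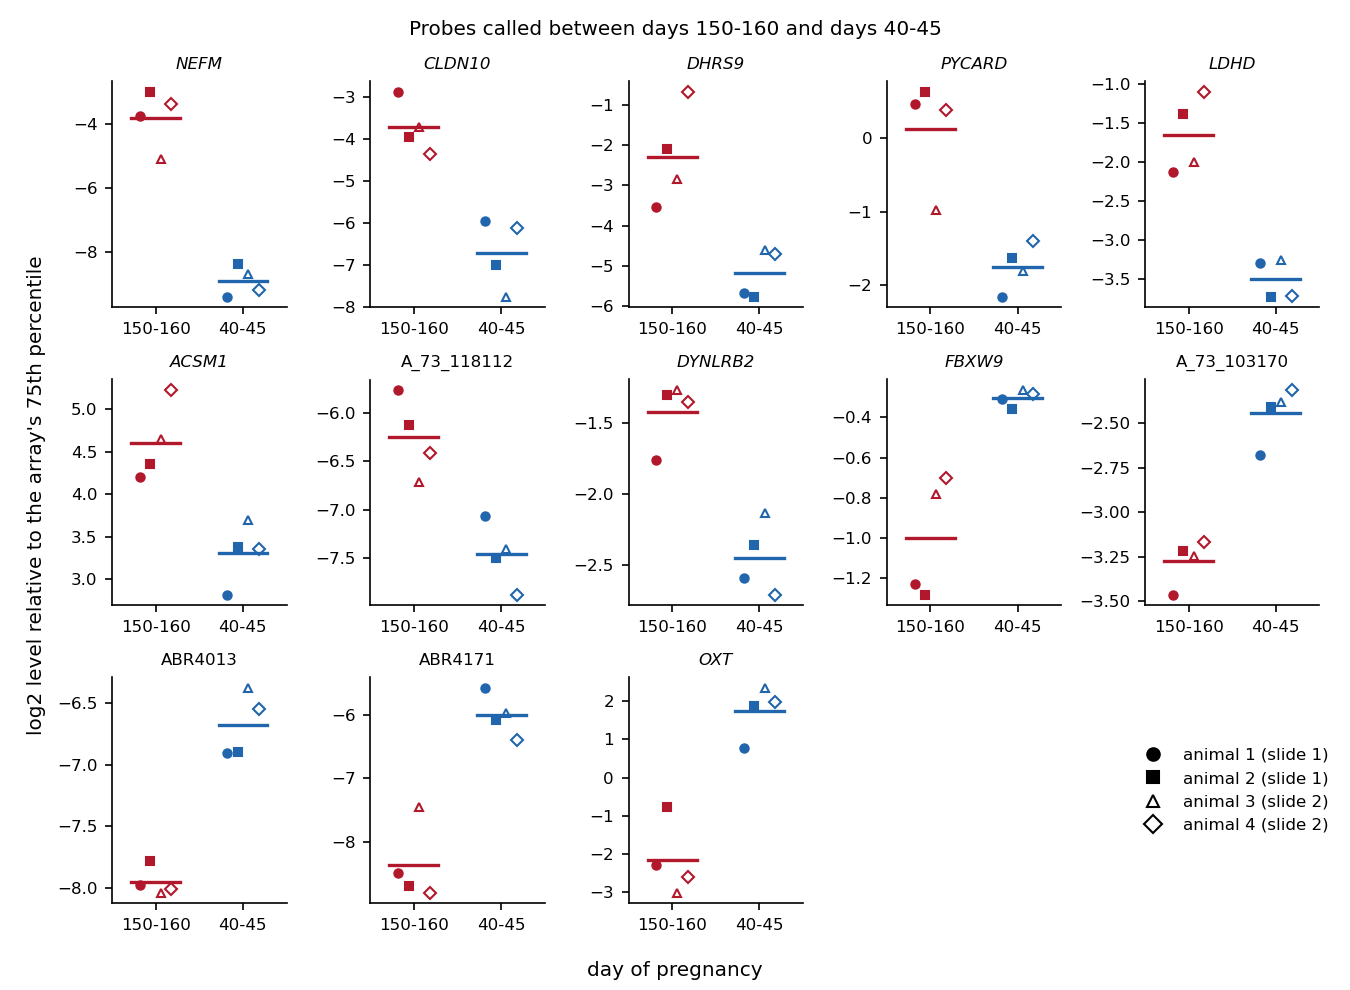
Levels of the 13 called probes in each cow, in log2 relative to the array's 75th percentile (vertical axis, a separate scale for each probe), for days 150-160 (red, left) and days 40-45 (blue, right). Symbols are single animals, filled on slide 1 and open on slide 2, and bars are group means. In all 13 panels the 4 late values and the 4 early values do not overlap, and in 8 of them the late values are the higher ones.

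NEFM, the medium chain of the neurofilament that fills nerve axons, was read above background in late glands but not in early ones. Its level was -3.77, -3.01, -5.10 and -3.38 on days 150-160, and -9.42, -8.38, -8.69 and -9.18 on days 40-45. All 4 late glands were well above background and none of the early ones was. The signal was therefore at least 8.13-fold higher on days 150-160 (measured means -3.81 and -8.92, adjusted p = 0.0213). It was also above background in 1 of 4 cyclic cows, and in 0 of 4 cows of days 20-25. The call was lost when any of 7 arrays was left out, with adjusted p up to 0.0931. With only the 8 compared arrays in the fit NEFM stayed called (adjusted p = 0.0471).

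Other nerve genes were set beside NEFM. NEFL, the light neurofilament chain, was not tested because too few arrays of any group read it. It was well above background on 2 of 4 arrays of days 150-160, with levels between -8.69 and -3.93, and on 0 of 4 arrays of days 40-45, with levels between -9.42 and -8.69. STMN2, a neuronal growth protein, was not well above background on any of the 8 arrays. TH, the first enzyme of catecholamine synthesis, had a log2 change of -0.07 and SNAP25, a protein of vesicle fusion, one of -0.47, and neither was called. DBH, which makes noradrenaline, lay the other way with a log2 change of 1.43 (adjusted p = 0.457) and was well above background on 1 late array and 1 early array. Of 31 tested genes of neurones and secretory granules only NEFM was called, and the median change of the list was 0.07, or 0.19 within slide 1 and -0.02 within slide 2. PENK, the enkephalin precursor in that list, had levels of 1.53, 1.12, 1.05 and -0.67 on days 150-160, against -2.79, -4.67, -0.62 and -0.78 on days 40-45. Its groups overlapped by a narrow margin and it was not called (log2 change 2.97, SE 0.997, adjusted p = 0.317).

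CLDN10, a claudin of tight junctions that sets which ions pass between cells, was the other gene that stayed called without any 1 array (adjusted p between 0.00927 and 0.049). With only the 8 compared arrays in the fit CLDN10 was not called (adjusted p = 0.149). Its level was -2.88, -3.95, -3.71 and -4.35 on days 150-160, and -5.94, -7.01, -7.76 and -6.13 on days 40-45. The late glands lay above all early ones, and only 2 of the 4 early arrays read it well above background. The log2 change was 2.99 (SE 0.369, adjusted p = 0.00887), with 3.06 within slide 1 and 2.91 within slide 2. Its group means were -9.22 (cyclic), -8.48 (days 20-25), -6.71 (days 40-45) and -3.72 (days 150-160). CLDN10 was well above background on 0 of 4 cyclic arrays and 0 of 4 arrays of days 20-25, so those means are background levels. Where the probe was required to be bright, with a mean level above -6 over all arrays, it was no longer tested.

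The epithelial list that holds CLDN10 had 23 tested genes. CLDN10 was its only called member. ANXA8L1, an annexin of stratified epithelia, had levels of -1.41, -1.40, 0.27 and -0.08 on days 150-160, and -4.13, -3.59, -3.51 and -2.20 on days 40-45. These did not overlap, yet the test did not call it (log2 change 2.70, SE 0.698, adjusted p = 0.177). UPK1B, a tetraspanin of surface epithelium, lay the other way, with -2.99 to 0.20 on days 150-160 and 0.44 to 1.29 on days 40-45 (log2 change -1.76, adjusted p = 0.315). CLDN4 and KRT5 did not overlap either, with changes of 0.50 and 0.61 (adjusted p = 0.381 and 0.33). Both were dim, with mean levels of -5.49 and -6.19 over all arrays. Of all probes, 6.27% at mean levels of -6 to -4 and 11.6% below -6 were higher in every late gland. In the epithelial list 4 members were higher in every late gland and 1 lower, against 4.22% and 2.39% of all genes. The list's median change was 0.20, with 17 members above 0 and 6 below, and it was 0.12 without animal 1 of days 150-160 or without animal 4 of days 40-45.

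ACSM1, DHRS9 and LDHD encode enzymes of lipid, retinoid or lactate metabolism. ACSM1, a mitochondrial synthetase that joins medium-chain fatty acids to coenzyme A, was bright in every gland. Its level was 4.20, 4.35, 4.65 and 5.23 on days 150-160, against 2.82, 3.38, 3.70 and 3.36 on days 40-45. The groups did not overlap, and the log2 change was 1.29 (SE 0.191, adjusted p = 0.0213), a 2.45-fold higher signal. DHRS9, a short-chain dehydrogenase that acts on retinol and on 3-alpha-hydroxysteroids, had levels of -3.53, -2.08, -2.85 and -0.67 on days 150-160, and -5.68, -5.78, -4.61 and -4.69 on days 40-45. Its late values spread over nearly 3 log2 units but all lay above the early ones (log2 change 2.91, SE 0.429, adjusted p = 0.0213). LDHD, the mitochondrial D-lactate dehydrogenase, had -2.13, -1.38, -1.99 and -1.10 on days 150-160 and -3.29, -3.73, -3.25 and -3.72 on days 40-45. Its change of 1.85 (SE 0.287, adjusted p = 0.0267) was 1.76 within slide 1 and 1.94 within slide 2. Without slide as a block the adjusted p was 0.184 for ACSM1, 0.101 for DHRS9 and 0.0501 for LDHD.

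PYCARD encodes ASC, the adaptor that links inflammasome sensors to caspase 1. Its level was 0.47, 0.63, -0.97 and 0.39 on days 150-160, against -2.16, -1.63, -1.81 and -1.40 on days 40-45. Animal 3 of days 150-160 lay well below the other late glands, though still above all early ones. The log2 change was 1.88 (SE 0.288, adjusted p = 0.0262), with 2.45 within slide 1 and 1.31 within slide 2. Without animal 3 of days 150-160 the change was 2.24. The call was lost when any of 7 other arrays was left out.

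The other called genes were DYNLRB2 and FBXW9. DYNLRB2, a light chain of cytoplasmic dynein named on the array through its human counterpart, had -1.76 to -1.26 on days 150-160 and -2.71 to -2.13 on days 40-45 (log2 change 1.03, SE 0.177, adjusted p = 0.0466). FBXW9, an F-box protein of ubiquitin ligase complexes, had -1.28 to -0.70 on days 150-160 and -0.36 to -0.26 on days 40-45 (log2 change -0.70, SE 0.117, adjusted p = 0.0455). The early values of FBXW9 lay close together. Both calls were close to the threshold, and leaving out 1 array ended the call of DYNLRB2 for 13 of the 16 arrays and that of FBXW9 for 12.

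ABR4171, described in the files as a transcribed locus, had -8.50, -8.69, -7.45 and -8.81 on days 150-160, and -5.57, -6.09, -5.97 and -6.40 on days 40-45. None of the late arrays read it well above background and all of the early ones did, so the signal was at least 1.35-fold lower on days 150-160 (adjusted p = 0.0132). The cyclic mean was -5.08 and that of days 20-25 was -5.03. ABR4013, described as similar to a fibronectin leucine rich transmembrane protein, was likewise not well above background in any late gland, with means of -7.95 on days 150-160 and -6.68 on days 40-45 (adjusted p = 0.0455). The late background level was too high to give a fold for it. A_73_103170 was measured on all 8 arrays, with a mean of -3.27 on days 150-160 and -2.44 on days 40-45 (log2 change -0.83, adjusted p = 0.0455). A_73_118112 was well above background on 3 late arrays and 1 early array (log2 change 1.21, adjusted p = 0.0455).

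**Figure D2:**
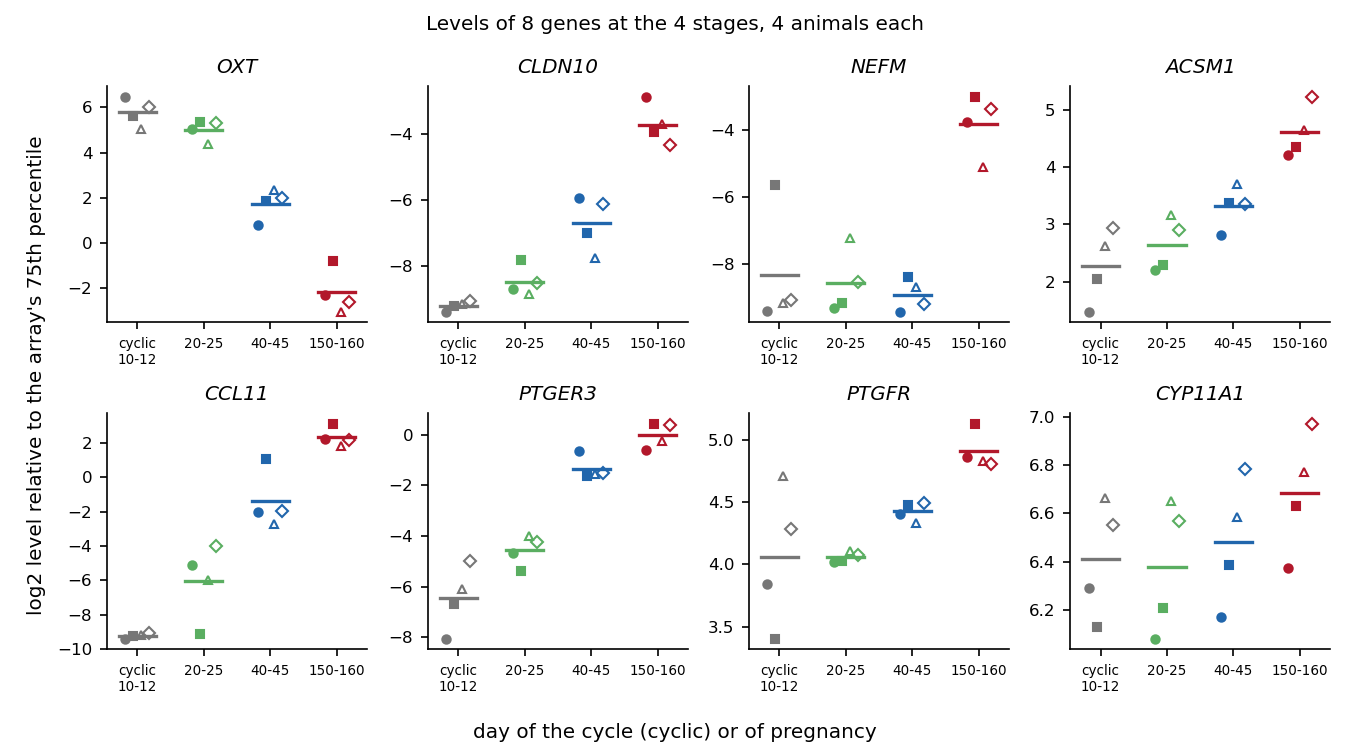
Levels of 8 genes in all 16 cows, in log2 relative to the array's 75th percentile, over the 4 stages (cyclic days 10-12, then days 20-25, 40-45 and 150-160 of pregnancy). Symbols are single animals and bars are means of 4. OXT means run 5.80, 5.02, 1.75 and -2.17 over the stages, while CCL11 means run -9.22, -6.07, -1.42 and 2.33, and CYP11A1 means lie between 6.38 and 6.69. No cyclic array read CCL11 or CLDN10 well above background, so their cyclic points are background levels. The same holds for CLDN10 at days 20-25 and for NEFM at days 20-25 and 40-45.

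Just outside the threshold, 23 probes had an adjusted p between 0.05 and 0.1, 17 higher on days 150-160 and 6 lower, and 11 of them had a gene name. The genes of this band, and the other uncalled genes below, were picked with their values in view. STAR, CYP11A1, HSD3B1, LHCGR, PTGFR, PTGER3, CCL11 and XCL1 are the exceptions, since the naming rule gives them whatever their values. GSN, gelsolin, which severs actin filaments, had 0.95, 0.85, 1.55 and 1.02 on days 150-160 and 1.84, 2.26, 2.12 and 2.28 on days 40-45. The groups were apart by a small gap (log2 change -1.03, SE 0.182, adjusted p = 0.0508). ITGAM, the CD11b integrin chain of myeloid cells, had -4.14, -1.58, -5.46 and -3.69 on days 150-160, and -8.95, -6.86, -8.69 and -7.56 on days 40-45, where only 1 of 4 arrays read it well above background (log2 change 4.29, SE 0.760, adjusted p = 0.0508). IGSF1, an immunoglobulin superfamily membrane protein, had a log2 change of -1.52 at the same adjusted p, but no late array and only 2 early arrays read it above background, and with dim values raised to the background level the sign turned (0.20).

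CYP17A1 converts progestins toward androgens in theca cells. Its level was -1.51, -0.15, -1.52 and 1.56 on days 150-160, and -3.19, -2.99, -3.49 and -3.03 on days 40-45. The early glands were close to each other and the late ones spread over 3 log2 units above them (log2 change 2.77, SE 0.531, adjusted p = 0.0805). Without animal 3 of days 150-160 the adjusted p was 0.0219. Leaving out any of the 15 other arrays gave no call for CYP17A1, with adjusted p up to 0.228. INSL3, another product of theca cells, ranged between 2.70 and 7.10 on days 150-160 and between 3.13 and 4.94 on days 40-45. Animal 4 of days 150-160 had the highest value of both genes, and INSL3 was not called (log2 change 1.15, adjusted p = 0.651). The 6 granulosa and theca markers were CYP19A1, FSHR, AMH, INHBA, CYP17A1 and INSL3. Their summed linear signal was 9.29 to 144 times the array's 75th percentile on days 150-160 and 10.9 to 33.2 times on days 40-45. INSL3 gave the strongest signal of them, so the sum mostly follows INSL3, and it includes CYP17A1 itself. CYP19A1, FSHR, AMH and INHBA had log2 changes of -0.04, -0.63, 0.13 and 0.32, none called. The part of such cells in the change of CYP17A1 was not tested.

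DAPL1, a small death-associated protein, had -3.77 to -2.16 on days 150-160 and -6.31 to -4.80 on days 40-45 (log2 change 2.25, adjusted p = 0.062). PAPPA, a protease that cleaves IGF-binding proteins, had -5.12 to -4.41 on days 150-160 and -5.80 to -5.43 on days 40-45 (log2 change 0.80, adjusted p = 0.0945). ADAM15, a membrane metalloprotease, had -4.76 to -4.47 on days 150-160 and -5.50 to -5.17 on days 40-45 (log2 change 0.74, adjusted p = 0.0889). ZP2, a zona pellucida protein of the oocyte coat, had -4.36 to -3.29 on days 150-160 and -2.71 to -2.03 on days 40-45 (log2 change -1.43, adjusted p = 0.0899). None of these 4 genes overlapped between the groups, and none was called. The photoreceptor pigment gene OPN1SW (log2 change 0.85, adjusted p = 0.0899) and SCP2D1 (1.48, adjusted p = 0.0945) complete the band, and both were dim in early glands. Across all tested probes, 490 (4.1%) lay higher in every late gland than in every early one and 275 (2.3%) lay lower, 6.41% together, and of these 81 were at least 2-fold higher and 38 at least 2-fold lower.

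The genes of progesterone synthesis, which lead the gland's function, did not separate the stages. STAR, which carries cholesterol into mitochondria, had 7.53, 7.60, 7.57 and 7.77 on days 150-160 and 7.43, 7.53, 7.55 and 7.79 on days 40-45. CYP11A1, which cuts the cholesterol side chain, had 6.37, 6.63, 6.77 and 6.97 on days 150-160 and 6.17, 6.39, 6.58 and 6.78 on days 40-45. HSD3B1, which makes progesterone from pregnenolone, had 7.48, 7.36, 7.35 and 7.58 on days 150-160 and 7.13, 7.13, 7.67 and 7.82 on days 40-45. The values of all 3 overlapped, with log2 changes of 0.04 (SE 0.166), 0.21 (SE 0.104) and 0.00 (SE 0.149) and adjusted p-values of 0.964, 0.518 and 0.998. Of 19 tested genes of steroid synthesis none was called (11 above 0, 8 below, median change 0.04). AKR1C4, an aldo-keto reductase known in humans to act on 3-ketosteroids, was in this list, with -3.98 to -2.17 on days 150-160 and -6.77 to -4.64 on days 40-45 (log2 change 2.21, adjusted p = 0.131). The array itself names this probe AKR1C1. HSD17B12, the lowest of the list, lay the other way. It had 2.40 to 3.72 on days 150-160 and 3.75 to 4.21 on days 40-45, without overlap (log2 change -0.75, adjusted p = 0.305).

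LHCGR, the receptor for luteinising hormone, had -1.28, -1.29, -1.80 and -0.83 on days 150-160, against -2.30, -2.58, -1.82 and -2.03 on days 40-45. The groups were apart by less than 0.1 log2 units (log2 change 0.88, SE 0.418, adjusted p = 0.49). Of 25 tested hormones and hormone receptors of the gland, OXT was the only called one, and the median change was 0.01. AVP, whose product vasopressin is a close relative of oxytocin, was higher in each late gland by a small margin, -5.21 to -4.58 against -5.68 to -5.24, and was not called (log2 change 0.46, adjusted p = 0.315).

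The receptors PTGFR and PTGER3 stood higher in late glands without being called. PTGFR, the receptor of prostaglandin F2 alpha, had 4.87, 5.13, 4.83 and 4.81 on days 150-160 and between 4.33 and 4.49 on days 40-45. The groups did not overlap (log2 change 0.48, SE 0.199, adjusted p = 0.401). PTGER3, the EP3 receptor of prostaglandin E2, had -0.62, 0.43, -0.25 and 0.40 on days 150-160 and -0.66, -1.64, -1.56 and -1.50 on days 40-45. One early gland came within 0.1 of the lowest late one (log2 change 1.33, SE 0.470, adjusted p = 0.33). Between days 40-45 and days 20-25 the same gene was called (log2 change 3.23, adjusted p = 0.0363). AKR1B1, a reductase that forms prostaglandin F2 alpha in cattle, had 1.13 to 1.73 on days 150-160 and 1.43 to 2.01 on days 40-45 (log2 change -0.43, adjusted p = 0.378). In all, 0 of 19 genes of prostaglandin synthesis, transport and reception were called, 10 lay above 0 and 9 below, and the median change was 0.23. That median did not keep its sign: it was -0.05 within slide 2 and -0.04 without animal 1 of days 40-45.

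The series title names chemokines as an interest. CCL11, eotaxin, which draws eosinophils, had 2.22, 3.11, 1.79 and 2.19 on days 150-160, and -2.03, 1.05, -2.70 and -1.98 on days 40-45. All late glands lay above all early ones, and animal 2 of days 40-45 stood about 3 log2 units above the other early glands. The fitted change was 3.74 (SE 0.946) and was not called (adjusted p = 0.174, and 0.0538 to 0.401 when 1 array was left out). With normexp background correction the adjusted p was 0.0387. XCL1, lymphotactin, had -3.91, -4.16, -4.27 and -2.89 on days 150-160 and -3.97, -4.25, -2.61 and -1.80 on days 40-45. These overlapped throughout (log2 change -0.65, SE 0.668, adjusted p = 0.792).

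CCL2, which attracts monocytes, had 2.30, 2.13, 0.40 and 1.92 on days 150-160 and -1.02, 0.82, 0.14 and 0.30 on days 40-45 (log2 change 1.63, adjusted p = 0.356). The neutrophil chemokines CXCL8 and CXCL5 had changes of 2.06 and 1.61 (adjusted p = 0.518 and 0.457). The slides differed: CXCL8 had -0.10 within slide 1 and 4.22 within slide 2, and CXCL5 had -0.01 and 3.23. CCL8 had -3.70 to -0.24 on days 150-160 and -4.14 to -2.24 on days 40-45 (log2 change 1.55, adjusted p = 0.553). Of 18 tested chemokine ligands 0 were called, 14 lay above 0, and the median change was 0.24. Slide 1 alone gave a median of 0.49 and slide 2 alone gave 0.01. All 6 tested chemokine receptors lay above 0, with 0 called and a median of 0.28, which was 0.55 within slide 1, 0.08 within slide 2 and 0.155 without animal 1 of days 150-160. CXCR3 was the farthest at 0.82 (adjusted p = 0.566). The receptors were dim, with array means of -5.44 to -4.50, and all probes with mean levels of -6 to -4 had a median change of 0.10.

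The immediate early genes, transcription factors and regulators that cells induce within minutes of a stimulus, had the highest median change of the 36 lists, 0.81, against 0.01 over the 5731 genes tested. Of 24 tested members 23 lay above 0 and 0 were called, 12 had an unadjusted p under 0.05, and 4 lay higher in every late gland than in every early one, against 4.22% of all genes. FOS had 1.45, -0.16, -2.64 and 1.02 on days 150-160 and -2.47, -1.36, -3.14 and -4.38 on days 40-45. Animal 3 of days 150-160 fell within the early range and the other late glands did not (log2 change 2.76, SE 0.880, adjusted p = 0.294). EGR1 had -4.06, -4.79, -5.50 and -4.22 on days 150-160 and -5.65, -5.48, -5.45 and -6.01 on days 40-45 (log2 change 1.01, SE 0.266, adjusted p = 0.183). ATF3 had -0.79, -1.30, -1.84 and -0.77 on days 150-160 and -2.52, -1.92, -2.50 and -2.60 on days 40-45, without overlap (log2 change 1.21, adjusted p = 0.348).

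The same late animal was lowest for other members. DUSP1, a phosphatase of MAP kinases, averaged 2.49 on days 150-160, with 1.61 in animal 3, and 1.37 on days 40-45 (log2 change 1.12, adjusted p = 0.33). CCN2, a matricellular growth factor, had 4.39, 4.62, 3.13 and 4.80 on days 150-160 and 2.93, 2.86, 3.21 and 2.42 on days 40-45 (log2 change 1.38, adjusted p = 0.369). Averaged over the 24 genes, the level was 1.22, 0.47, -0.17 and 0.77 on days 150-160 and -0.17, 0.05, -0.30 and -0.51 on days 40-45. Animal 3 of days 150-160 thus lay within the early range, and animal 1 stood highest. Leaving out animal 1 of days 150-160 gave a median of 0.49, and the median over all alternatives run lay between 0.49 and 1.11. IER3 was the 1 member below 0 (log2 change -0.46, adjusted p = 0.778).

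**Figure D3:**
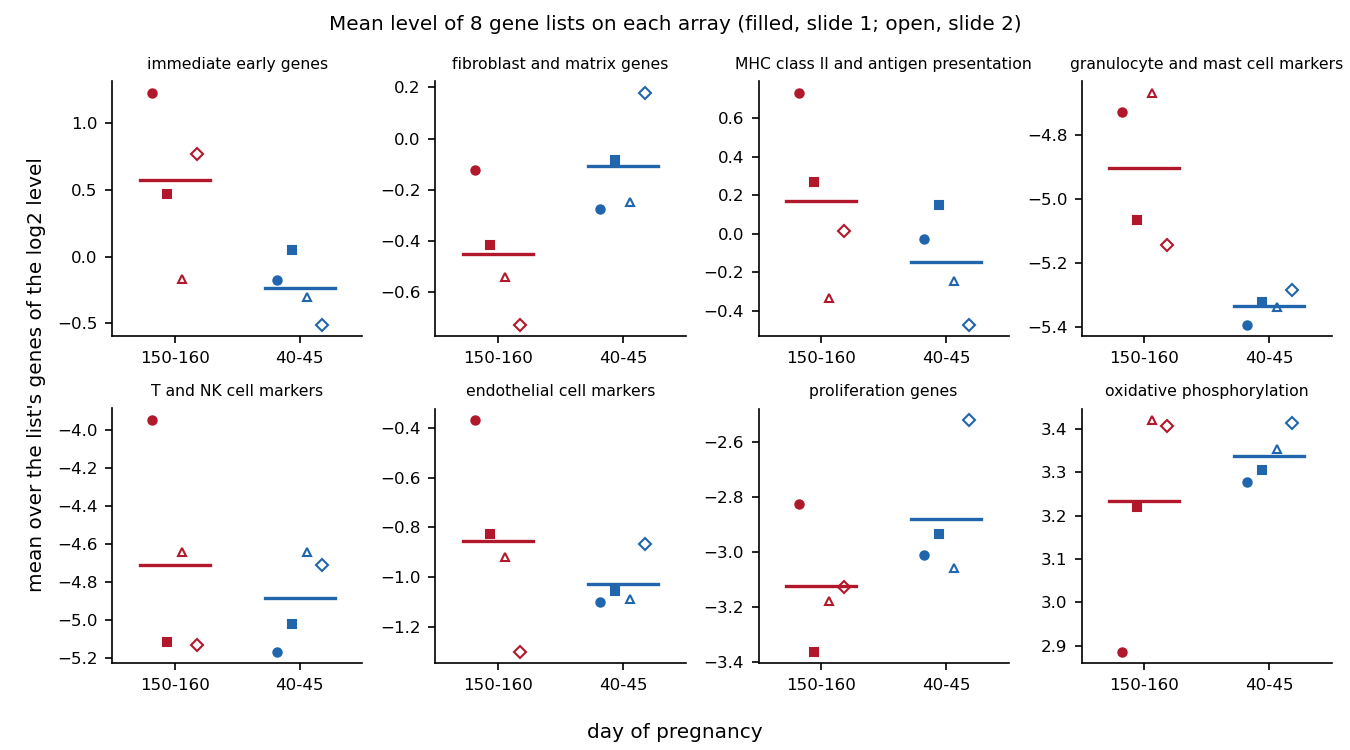
Mean log2 level over the tested genes of 8 gene lists on each array (vertical axes differ), for days 150-160 (red, left) and days 40-45 (blue, right). Symbols are single animals, filled on slide 1 and open on slide 2, and bars are group means. For immediate early genes 3 of 4 late glands lie above all early ones, for granulocyte and mast cell markers all 4 do, and animal 1 of days 150-160 is the highest for T and NK cell and endothelial markers. The granulocyte and mast cell list is dim, between -5.39 and -4.67, where probes of any kind tend to lie higher on days 150-160.

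Genes of the extracellular matrix were placed lowest of the 36 lists, with a median change of -0.27. None of 30 tested members was called, 20 lay below 0, 8 of these with an unadjusted p under 0.05 against 2 above 0, and 5 were lower in every late gland than in every early one, against 2.39% of all genes. FN1, fibronectin, had -0.62, -0.31, -0.00 and -1.02 on days 150-160 and 0.42, 0.82, 0.70 and 1.11 on days 40-45. The groups did not overlap (log2 change -1.25, SE 0.247, adjusted p = 0.0899), and a second probe of FN1 gave -1.29 (adjusted p = 0.164). COL1A2, a chain of type I collagen, had -2.18, -3.50, -2.82 and -3.46 on days 150-160 and -1.57, -1.16, -1.38 and -0.28 on days 40-45, again without overlap (log2 change -1.89, SE 0.412, adjusted p = 0.118). Its partner chain COL1A1 had -3.25 to -2.03 on days 150-160 and -2.45 to -0.65 on days 40-45, where 1 early gland fell in the late range (log2 change -1.13, adjusted p = 0.447).

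Other matrix genes kept the same sign without passing the test. COL3A1, type III collagen, had a change of -0.72 and LUM, the collagen-binding lumican, one of -0.56 (adjusted p = 0.441 and 0.361). FBN1, the fibrillin of elastic microfibrils, had -3.20 to -2.29 on days 150-160 and -2.02 to -1.76 on days 40-45 (log2 change -0.82, adjusted p = 0.29). SPP1, osteopontin, had -2.69 to -0.30 on days 150-160 and -0.15 to 0.69 on days 40-45 (log2 change -1.78, adjusted p = 0.332). COL4A1 of basement membranes was also below in every late gland (-0.43, adjusted p = 0.451), whereas NID1, nidogen of the same membranes, was above in every late gland (0.49, adjusted p = 0.412). The member farthest above 0 was OGN, osteoglycin, with -7.14 to -4.02 on days 150-160 and -8.69 to -6.20 on days 40-45, which overlapped (log2 change 1.21, adjusted p = 0.323). P4HA3, a prolyl hydroxylase that modifies collagen, was outside the list and had -4.29 to -1.81 on days 150-160 and -1.76 to -0.81 on days 40-45 (log2 change -2.05, adjusted p = 0.236). The 5 fibroblast markers were COL1A1, COL1A2, COL3A1, PDGFRA and DCN. Their summed linear signal was 18.7 to 34.3 times the 75th percentile on days 150-160 and 26.5 to 45.9 times on days 40-45. The collagens in this sum are among the matrix genes above, so it is not a separate reading of fibroblasts. The part of fibroblast number in the matrix values was not tested. The list's median stayed between -0.48 and -0.17 under all alternatives run, with -0.44 without animal 1 of days 40-45.

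**Figure D4:**
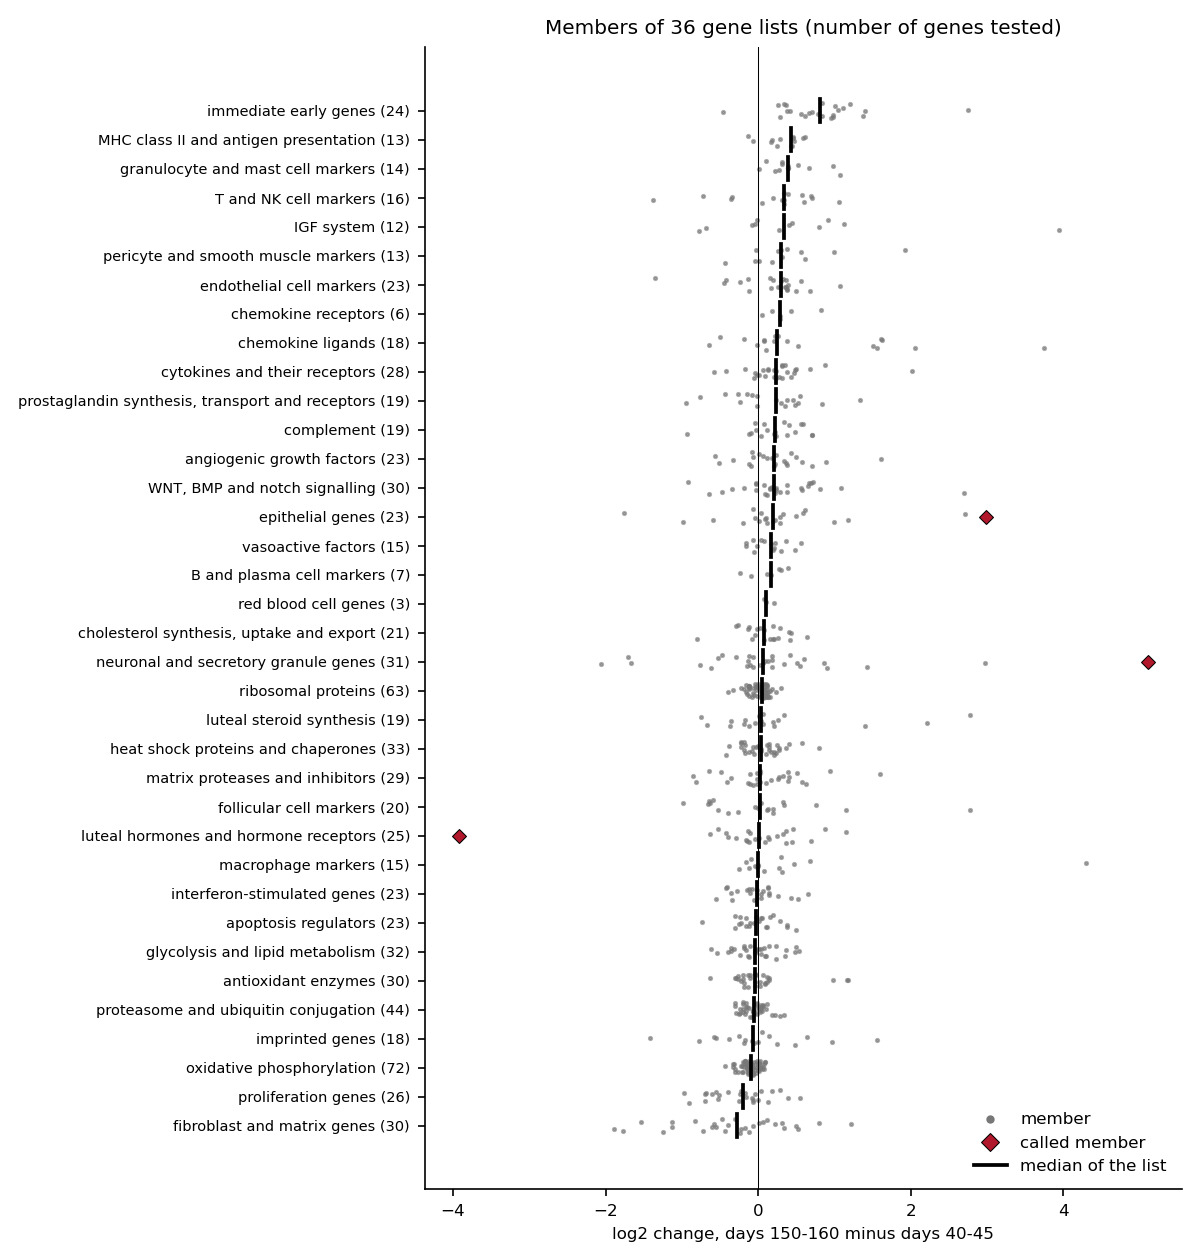
Log2 change of every tested member of 36 gene lists (days 150-160 minus days 40-45, horizontal axis), with lists ordered by their median (black bar) and the number of tested genes in parentheses. Grey points are members and red diamonds are called members, of which there are 3: NEFM, CLDN10 and OXT. The medians run from -0.27 in fibroblast and matrix genes to 0.81 in immediate early genes.

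The system of insulin-like growth factors had wide differences and 0 called genes. IGFBP2, a carrier protein of these growth factors, had 1.13, -3.99, 0.35 and 1.27 on days 150-160 and -3.62, -4.22, -5.47 and -3.70 on days 40-45. Animal 2 of days 150-160 stayed in the early range while the other 3 late glands stood more than 4 log2 units above it (log2 change 3.94, SE 1.02, adjusted p = 0.177). IGFALS, which holds the carrier complex together in blood, had -1.80 to -0.50 on days 150-160 and -2.96 to -1.48 on days 40-45 (log2 change 1.12, adjusted p = 0.354). IGF2 had -2.72 to -1.37 on days 150-160 and -1.58 to -1.06 on days 40-45 (log2 change -0.77, adjusted p = 0.373). Of 12 tested members 0 were called, 7 lay above 0, and the median was 0.34. Among imprinted genes MEST had -4.94 to -3.73 on days 150-160 and -3.53 to -1.93 on days 40-45 (log2 change -1.42, adjusted p = 0.29), but its second probe gave -0.23.

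Other single genes with wide, uncalled differences belonged to several pathways. DIO2, which activates thyroid hormone, had -5.09 to -3.45 on days 150-160 and -7.48 to -6.78 on days 40-45 (log2 change 2.52, adjusted p = 0.205), yet its cyclic mean was -4.10. DIO3, which inactivates the hormone, had -6.56 to -5.73 on days 150-160 and -7.44 to -6.53 on days 40-45 (log2 change 0.97, adjusted p = 0.247). SFRP2, a secreted WNT-binding protein, had -4.84 to -3.00 on days 150-160 and -8.33 to -5.44 on days 40-45 (log2 change 2.70, adjusted p = 0.177), with a cyclic mean of -4.03. For DIO2 and SFRP2 the late mean was thus nearer the cyclic mean than the early pregnant one. PPP2R2C, a regulatory subunit of protein phosphatase 2A, had -2.61 to -1.53 on days 150-160 and -6.23 to -3.80 on days 40-45 (log2 change 2.57, adjusted p = 0.164). PPP1R14C, an inhibitor of protein phosphatase 1, had -4.87 to -3.49 on days 150-160 and -6.90 to -6.48 on days 40-45 (log2 change 2.33, adjusted p = 0.19). HSPB3, a small heat shock protein, had -8.50 to -6.53 on days 150-160 and -6.34 to -4.17 on days 40-45, and was above background on 1 late array (log2 change -2.10, adjusted p = 0.258). GJA1, the gap junction protein connexin 43, had 2.39 to 3.21 on days 150-160 and 3.41 to 4.23 on days 40-45 (log2 change -0.98, adjusted p = 0.216).

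Immune and vascular marker lists had no called member, beside 0.109% called over all probes, so this says little about these lists. Granulocyte and mast cell markers lay above 0 for all 14 tested genes, with a median of 0.39. That median was 0.26 without animal 3 of days 150-160 and as low as 0.18 under other background correction or scaling. The cathelicidin CATHL1 was not well above background on any of the 8 arrays. The list was dim, with array means of -5.39 to -4.67. Over all probes the median change was 0.10 at mean levels of -6 to -4 and 0.32 below -6. The part of that shift in the list was not tested. S100A12, a calgranulin of neutrophils, had -0.59 to 0.42 on days 150-160 and -1.23 to -0.97 on days 40-45 (log2 change 0.98, adjusted p = 0.469). Genes of MHC class II and antigen presentation had a median of 0.43, with 11 of 13 above 0. The median was 0.20 within slide 2, 0.19 without animal 1 of days 150-160 and 0.19 without animal 4 of days 40-45. BOLA-DYB was the member with the smallest p (log2 change 0.61, adjusted p = 0.308). It was dim, with a mean level of -6.76 over all arrays, and well above background on 2 late arrays and 1 early array. T and NK cell markers had a median of 0.34, but slide 1 gave 0.56 and slide 2 gave -0.14. CD3E, a chain of the T cell receptor complex, was -1.94 in animal 1 of days 150-160, -3.36 to -3.13 in the other late glands and -4.08 to -3.20 on days 40-45. CD14, the monocyte co-receptor for lipopolysaccharide, did not overlap (log2 change 0.67, adjusted p = 0.484), while the macrophage list as a whole had a median of -0.00.

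Endothelial markers had a median of 0.30, but slide 1 gave 0.62 and slide 2 gave -0.00. TEK, the angiopoietin receptor, had 1.54, 0.64, 0.31 and 0.31 on days 150-160 and 0.19, 0.01, -0.14 and 0.05 on days 40-45 (log2 change 0.68, SE 0.185, adjusted p = 0.197). LYVE1, a hyaluronan receptor of lymphatic vessels, lay the other way with -1.55 to 0.41 on days 150-160 and -0.02 to 1.17 on days 40-45 (log2 change -1.36, adjusted p = 0.19). NOS3, the endothelial nitric oxide synthase, had a change of 0.56 (adjusted p = 0.395). In the complement list, C4A had 5.96 to 6.67 on days 150-160 and 5.09 to 6.06 on days 40-45, and SERPING1, the C1 inhibitor, had 2.08 to 2.57 on days 150-160 and 1.14 to 1.86 on days 40-45. Neither was called (adjusted p = 0.388 and 0.399), and the list's median was 0.22, or 0.09 within slide 2 and 0.09 without animal 1 of days 150-160.

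Large sets of housekeeping genes differed little. The 63 tested ribosomal protein genes had a median change of 0.04 with 0 called, against 0.109% of all probes. Of them 0 were non-overlapping, against 4.22% of all genes higher in every late gland and 2.39% lower. The 72 tested genes of oxidative phosphorylation had a median of -0.10, with 60 below 0, 4 below in every late gland (2.39% over all genes) and 0 called. Slide 1 gave -0.22 and slide 2 gave 0.02, and the median was 0.00 without animal 1 of days 150-160, whose mean over these genes was 2.89 against 3.22 to 3.42 in the other late glands and 3.28 to 3.41 in the early ones. Proliferation genes had a median of -0.20, with 20 of 26 below 0 and 0 called. Of them 3 were higher in every late gland and 2 lower, against 4.22% and 2.39% of all genes. An unadjusted p under 0.05 was found for 1 member above 0 and 1 below. The median was -0.12 without animal 2 of days 150-160, -0.06 without animal 4 of days 40-45 and -0.06 with normexp, and NUSAP1, a protein of the mitotic spindle, had -3.36 to -2.74 on days 150-160 and -2.45 to -1.62 on days 40-45 (log2 change -0.91, adjusted p = 0.38). Antioxidant genes had a median of -0.04, but GPX3, the secreted glutathione peroxidase, was apart at 0.09 to 0.64 on days 150-160 and -1.03 to -0.29 on days 40-45 (log2 change 0.98, adjusted p = 0.322). The metallothioneins MT1A and MT2A had changes of 1.18 and 1.16 (adjusted p = 0.569 and 0.553), and their near-identical sequences may share signal.

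Late glands varied more among themselves than glands of days 40-45, but about as much as cyclic ones, whose median SD over probes was 0.303. At days 20-25 that SD was 0.249. The median SD over probes was 0.305 among the 4 cows of days 150-160 and 0.207 among the 4 of days 40-45, and 71.1% of the probes had the larger SD on days 150-160. The first principal component over the 8 arrays held 28.4% of the variance. On it the late glands lay at 52.4, 22.6, -11.9 and 5.64, and the early ones between -25.2 and -12.5. On that component animals 1 and 2 of days 150-160 were the farthest from the early glands and animal 3 the nearest. On the second component (17.3%) animal 4 of days 150-160 stood apart at -40.0, against -3.41 to 19.9 in the early glands.

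The change also depended on brightness. The 1204 probes with a mean level below -6 had a median change of 0.32, and 11.6% of them were higher in every late gland, against 1.25% that were lower. From -6 to -4 the median was 0.10, and above 0 it was -0.03, with 2.15% higher and 2.98% lower. Of the 13 called probes 5 had a mean level below -6, among them NEFM and CLDN10. The part of the higher negative control spread on the late arrays in this shift was not tested.

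**Figure D5:**
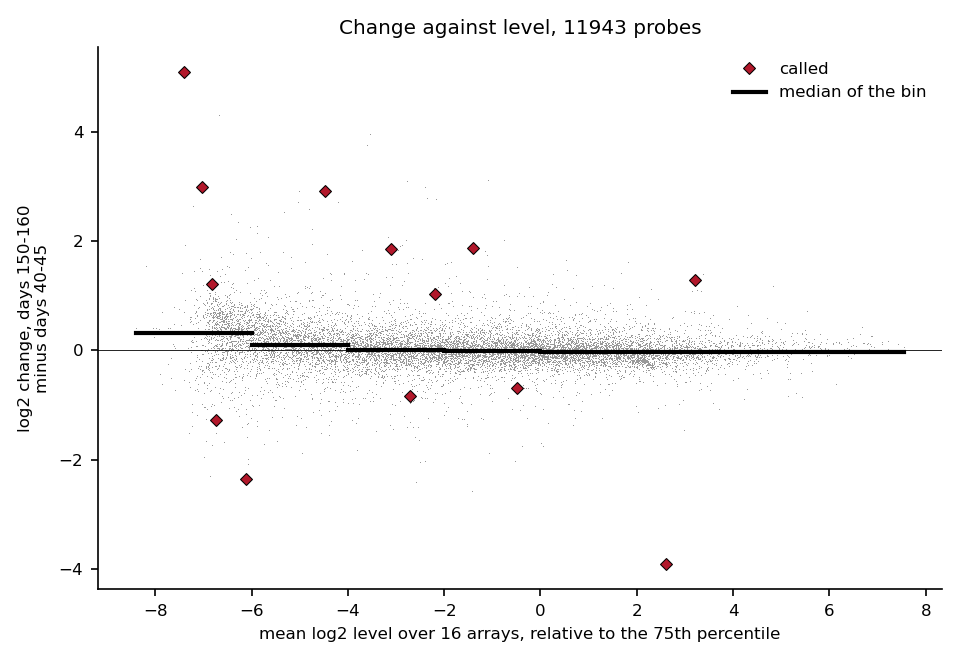
Log2 change (days 150-160 minus days 40-45, vertical axis) against the mean log2 level over all 16 arrays (horizontal axis) for the 11943 tested probes, with the 13 called probes as red diamonds and the median of 5 level bins as black bars. The bar of the dimmest bin lies at 0.32 and those above a level of -4 lie within 0.04 of 0, while OXT is the bright diamond at -3.92.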

How the data were processed

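Per the labels' protocols, total RNA (400 ng) was extracted with RNeasy, amplified and labelled with Cy3. The submitters' processing notes name Agilent Feature Extraction 9.5. Per the file headers, the deposited processed values are spot intensities, linear, background-subtracted but unscaled across arrays. The authors' deposited value table is on a log2 scale; within 0.00461 it is log2 intensity less a constant near each array's 75th percentile, and it served as an alternative.

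Of 15744 features 536 control spots were left out, and 36 outlier spots were set to missing. Testing needed, in at least 1 group, 3 of 4 arrays with an unflagged spot well above background. All 16 arrays were fitted with limma 3.58.1 in R 4.3.3 (group and slide, 11 residual and 2.54 prior degrees of freedom), and the fit was tested on simulated data. All p-values are two-sided. Where no array of a group read a probe above background, each array contributed the larger of the probe's own signal and the dimmest signal there that counted as above background, which makes the fold a lower bound. Gene names came from the files and from RefSeq names of ARS-UCD2.0: 7105 probes had 1 symbol and 8103 had none. Lists used 1 probe per gene, the brightest tested. The naming rule took called, named, non-overlapping probes, up to 15 with the largest changes in each direction, up to 6 called members of each list, and 9 genes always given (STAR, CYP11A1, HSD3B1, LHCGR, PTGFR, OXT, PTGER3, CCL11, XCL1). Others were chosen after their values were seen. The comparison, lists and always-given genes were chosen with earlier results of these data known. Alternatives covered the block, background correction, scaling, filters, array weights and each array left out. The number of arrays limits the precision.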

Additional observations from a re-analysis of the deposited data

Results flagged for a closer look

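Dixon's criterion for an outlying value was applied to the 4 animals of each group for 195 pairs of named gene and stage, and 13 pairs held an animal far from the other 3. Chance flags about 1 in 20 groups.

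On days 150-160 animal 3 stood apart in 3 genes: PYCARD at -0.97 against 0.39 to 0.63 in the other late glands, DUSP1 at 1.61 against 2.72 to 2.86, and UPK1B at -2.99 against -0.24 to 0.20. Animal 1 stood apart in 3 genes, above the others each time: DAPL1 at -2.16 against -3.77 to -3.55, CD3E at -1.94 against -3.36 to -3.13, and GADD45G, a stress-induced cell cycle regulator, at -1.61 against -2.87 to -2.70. C4A was 6.67 in animal 4 against 5.96 to 6.02, and GPX3 was 0.64 in animal 2 against 0.09 to 0.18.

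On days 40-45 animal 2 was above the others in IGSF1 (-6.26 against -7.15 to -7.02), EGR4 (-5.43 against -6.27 to -6.21) and ATF3 (-1.92 against -2.60 to -2.50). PTGER3 was -0.66 in animal 1 against -1.64 to -1.50, and MEST was -1.93 in animal 4 against -3.53 to -3.31.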

How the results depend on the processing

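The number of called probes was 13, and it moved by over 1.5 times under 18 of 31 alternatives. It was 5 without the slide block, 1 within slide 1, 0 within slide 2 (limma, 478 with an unadjusted p under 0.05), 1 with the 8 compared arrays alone, 5 for probes well above background on all 16 arrays, 25 with array weights and 5 for probes with a mean level above -6, an alternative chosen after the data were seen. Leaving out 1 array gave between 2 and 29 calls: 2 without animal 1, 3 without animal 2, 29 without animal 3 and 2 without animal 4 of days 150-160, 2, 4, 2 and 4 without animals 1 to 4 of days 40-45, 8 without animal 1 of days 20-25, 21 without animal 1 and 6 without animal 3 of the cyclic cows. Of the other counts, the share higher (61.5% of the 13) moved by over 10 percentage points with normexp (75% of 12), without the filter on dim probes (76.5% of 17), with dim values raised to the background (75% of 16) and without animal 4 of days 20-25 (44.4% of 18). The other counts lay between 9 and 18. OXT and CLDN10 kept direction in every alternative that tested them and were called in 28 of 31 and 26 of 29. Both lost the call within slide 1, within slide 2 and with the 8 compared arrays alone.

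The replicate numbers were not taken to pair the samples, since not every correlation passed 0.1. Deviations of animals with the same number correlated at 0.09, 0.19, 0.14 and 0.02 between the stages, and numbers 1, 2 and 3 each correlated best with their own number while number 4 did so with number 3. With the replicate block in place of slide, 14 probes were called, 10 of them among the 13.

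Sign changed in 20 of the alternatives of single genes and probes, all but 1 of them in genes that were not called. The exception was ABR4013, at 0.23 with dim values raised to the background, where IGSF1 gave 0.20 and PLA2G4A 0.34, and PLA2G4A 0.0505 with normexp. STAR gave -0.00453 within slide 2 and -0.0459 to 0.139 without an array. HSD3B1 gave -0.28 within slide 2, -0.00171 with normexp, -0.15 with quantile normalization, -0.0147 with median scaling, -0.0306 with array weights and -0.0927 to 0.123 without an array. XCL1 gave 0.0771, CXCL8 -0.10 and CXCL5 -0.0143 within slide 1. The cause of these changes was not tested. Signal over background limits NEFM, CLDN10, ABR4171, ABR4013 and A_73_118112.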
